A study of Mus musculus with 28 samples.

Results

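The wells described here are 243 pairs of mouse liver cells, each a periportal hepatocyte sorted with an attached CD31+ cell, in which at least 1 UMI of Sox9 or Spp1 was counted. They were chosen by those 2 genes from the 1540 periportal pairs among the 4621 pair wells of the series, and the other 1297 periportal pairs, with no UMI of either gene, stand beside them. A UMI, or unique molecular identifier, tags 1 captured mRNA molecule, and the libraries were made with MARS-seq, a plate method that reads the 3' end of each mRNA. The pair wells came from 17 libraries of 3 C57BL/6 male mice aged 6 or 7 weeks. The mice were fasted before the liver was perfused with collagenase under ketamine and xylazine. No animal carried a mutation or received a test treatment, and the single non-parenchymal cells of the series came from 2 other C57BL/6 males aged 3 and 4 months. Which well came from which library or mouse is not given in the sources used here, so all pair wells count as 1 sample and the 2 groups of wells are not replicates of a condition. No test between them was made and no p-value is given. Intervals are 95% intervals that cover counting error only.

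Sox9 encodes a transcription factor of the bile duct epithelium, and Spp1 encodes osteopontin, a secreted phosphoprotein that duct cells make and that some macrophages and endothelial cells also make. In the mouse liver, hepatocytes next to the portal tract that carry low amounts of both proteins have been described beside the ducts, and liver injury can raise Sox9 in hepatocytes. Hepatocytes change their gene expression along the lobule, with urea synthesis, gluconeogenesis and secretion of many plasma proteins stronger at the portal side, and Wnt-driven detoxification and glutamine synthesis stronger at the central side. The wells address how periportal hepatocytes with these transcripts differ from their neighbours without them.

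Position came from a score that set the UMIs of the pericentral genes Cyp2e1, Cyp2c29 and Oat against those of the periportal genes Cyp2f2 and Hal, each sum divided by its mean over wells. A score of 0 is the portal end and 1 the central end. The 1540 wells with the lowest scores were called periportal, and these reached a score of 0.242. The highest score inside that limit was 0.241817 and the lowest outside it was 0.242047. Among the 243 wells with, 183 held 1 UMI of the 2 genes together, 45 held 2, 11 held 3, 3 held 4 and 1 held 5. Membership of 75.3% of the wells thus rested on 1 molecule. Sox9 alone was counted in 146 wells, Spp1 alone in 76 and both in 21, with 200 UMIs of Sox9 and 123 of Spp1 in all. The most in a well was 3 UMIs of Sox9 and 4 of Spp1. These counts chose the wells and are given as a description. Blocks, here runs of 384 well numbers, served as the batches. The 17 blocks that hold wells are numbered 1 to 16 and 41, and the titles of the 17 pair libraries carry the same numbers, but no source states that a block is a library. If it is, blocks 1 and 2 are the libraries of the mouse aged 6 weeks and the other blocks those of both mice aged 7 weeks. Blocks 1 and 2 stood apart by their levels of serum amyloid transcripts, and results that rest on them are given with and without them.

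Both genes were highest at the portal end. A UMI of either gene was present in 15.8% of periportal wells (exact binomial interval 13.99 to 17.7), in 4.87% of the next 1540 wells (3.85 to 6.07) and in 3.11% of the 1541 most central wells (2.31 to 4.11). Sox9 had 10.6 UMIs per 1000000 gene UMIs in the periportal wells, 3.43 in the middle and 1.85 in the central wells. Spp1 had 6.51, 1.07 and 0.721 on the same scale. The intervals of the periportal level did not overlap those of the other wells for either gene. Spp1 dropped off more steeply between the periportal and middle wells than Sox9, 6.51 against 1.07 beside 10.6 against 3.43, and that difference was not tested. With all wells cut by score into 10 groups, 22.4% of the 465 most portal wells, with scores up to 0.0123, held a UMI, and in the next 4 groups 15.2%, 12.8%, 7.36% and 5.35% did. From there to the central end the share lay between 3.03% and 3.88%. Within the periportal wells alone, cut into 3 groups by score, the level of both genes together was 22.5 UMIs per 1000000 in the most portal group, 17.3 in the next and 10.4 in the last. With every well thinned to 5000 UMIs, the shares were 7.27% in periportal, 2.36% in middle and 1.13% in central wells, so the order from portal to central held at equal depth. Thinning left out 633 shallower wells, of which 233 were periportal.

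**Figure D1:**
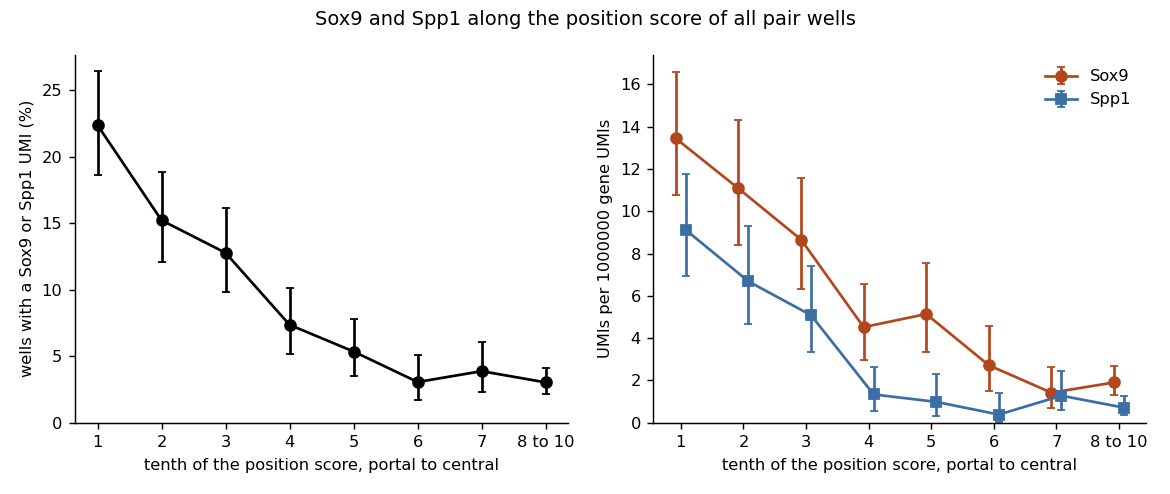
Left, percent of pair wells with at least 1 UMI of Sox9 or Spp1 in groups cut by the position score, from portal to central. Right, UMIs of each gene per 1000000 gene UMIs. The last 3 groups are joined because many wells share a score of 1, and bars are exact 95% intervals for counting error. The share is 22.4% in the most portal group and 3.03% in the joined central groups, and Sox9 lies above Spp1 in every group of wells.

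Wells with Sox9 or Spp1 held more RNA molecules. Gene UMIs per well ran from 2549 over a median of 14961 to 48331 in wells with, and from 2455 over a median of 9653 to 48430 in wells without. The ranges overlap almost fully, and the median was higher in the wells with in 16 of 16 blocks of well numbers. UMIs of the spike-in RNA, which was added in equal amount, had medians of 85 in wells with and 82 in wells without. Gene UMIs per spike-in UMI had medians of 173 and 119. Genes detected per well had medians of 3219 in wells with and 2509 in wells without. After thinning to 5000 UMIs both medians were 1668 genes, in 225 wells with and 1082 wells without. A well with more UMIs has more chances to show a rare transcript. In 4 groups of equal size by depth, from low to high, 7.53%, 9.61%, 16.4% and 29.6% of periportal wells held a UMI of either gene. The level per 1000000 did not climb in this way, with 21.7, 14.8, 16.1 and 17.5 UMIs and overlapping intervals. The score was also lower, that is more portal, with medians of 0.0172 in wells with and 0.0302 in wells without, and it was lower in 13 of 16 blocks. Ratios of genes are therefore given over all periportal wells and, where it matters, as a ratio matched for score and depth (a Mantel-Haenszel ratio over 10 score groups by 3 depth groups).

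**Figure D2:**
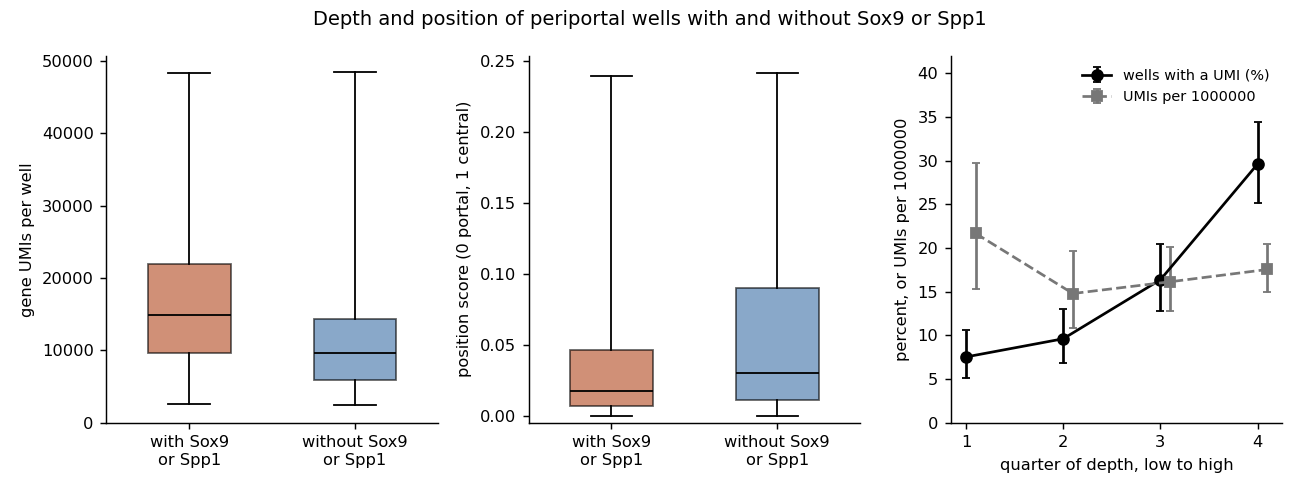
Left and middle, gene UMIs and position score of the 243 periportal wells with and the 1297 wells without Sox9 or Spp1; boxes span the quartiles, lines inside are medians, whiskers reach the lowest and highest well. Right, share of periportal wells with either gene (percent) and level of both genes together (UMIs per 1000000 gene UMIs) in 4 groups of wells by depth, with exact 95% intervals. The median depth is 14961 in wells with and 9653 in wells without, and the share climbs with depth while the level of both genes together does not.

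Both genes were present together in 21 periportal wells. Spp1 was present in 21 of 167 wells with Sox9, which is 12.6% (interval 7.96 to 18.6), and in 76 of 1373 wells without Sox9, which is 5.54% (4.39 to 6.88). The wells with Sox9 were deeper, with medians of 15927 UMIs against 9817 in wells without. Per 1000000 UMIs, Spp1 had 8.22 in wells with Sox9 and 6.18 in wells without, a 1.33-fold ratio whose interval, 0.821 to 2.08, includes 1. Sox9 had 17.7 UMIs per 1000000 in wells with Spp1 and 9.96 in wells without, a 1.77-fold ratio (1.14 to 2.67). In wells thinned to 5000 UMIs, Spp1 was in 3.57% of the 56 wells with Sox9 and in 3.12% of the 1251 wells without, and joint presence came down to 2 wells. At that depth a difference was not detectable.

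Defining markers of the bile duct were at or near 0 in both groups of wells. Of 8 genes that mark duct epithelium, among them Epcam, Krt19, Krt7, Tspan8, Cldn4, Cldn7 and Cftr, 1 UMI was counted in wells with, of Cldn4, and 1 in wells without, of Epcam. The keratin genes Krt19 and Krt7, which define duct cells, had 0 UMIs in all 1540 wells, and so had Tspan8, Cldn7 and Cftr. With 3 UMIs taken as the upper limit of a count of 0, the wells with allow up to 0.721 UMIs per 1000000. This is a 1-sided limit, lower than that of the exact interval used for levels. Over the whole list of 26 cholangiocyte markers other than Sox9 and Spp1, the summed level was 150.4 UMIs per 1000000 in wells with and 149.9 in wells without, a ratio of 1.003 (0.917 to 1.10). Tm4sf4 and Aqp1 gave most of that sum, and 12 members were at 0 in both groups. Tm4sf4, a tetraspanin-like membrane protein gene, had 268 UMIs in wells with and 848 in wells without (log2 ratio 0.16, interval -0.04 to 0.36). Aqp1, a water channel gene that liver endothelium also uses, had 181 and 773 (-0.27). Tff3, which encodes a secreted trefoil peptide, had 81 and 210 UMIs, a log2 ratio of 0.45 that came to 0.07 when matched for score and depth. Among further members with any UMI, Wfdc2 had 18 UMIs in wells with and 104 in wells without, Slc4a2 33 and 124, Pkhd1 4 and 14, Bicc1 2 and 13, Krt23 3 and 8, Elf3 3 and 1, Cd24a 1 and 0, and Ehf 0 and 1.

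By the genes that mark the cell type, these wells were hepatocyte wells. Alb, the albumin gene, had 88030 UMIs per 1000000 in wells with and 89409 in wells without. The keratin genes Krt8 and Krt18, which hepatocytes share with ducts, had log2 ratios of -0.07 (interval -0.30 to 0.16) and -0.02 (-0.18 to 0.15). Transcripts of endothelial marker genes were present in 243 of 243 wells with and in 1297 of 1297 wells without.

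Differences in level between the 2 groups of wells were mostly small. Levels were compared for 6333 genes with at least 200 UMIs over both groups, leaving out Sox9, Spp1 and the 5 genes of the score. At least 1.5-fold higher in wells with Sox9 or Spp1 were 12 genes, 0.189% of those compared, and at least 1.5-fold lower were 37 genes, 0.584%. The counting interval excluded 1 for 345 higher and 438 lower genes. The median log2 ratio of all compared genes was -0.01, and the central 95% lay between -0.42 and 0.34. The counts depend on the low-count limit and on how the groups are set. At 2 or more UMIs of Sox9 and Spp1, 60 wells against the same wells with 0, they were 89 and 301, and matched for score and depth they were 14 and 21.

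Acute-phase genes were 4 of the 5 genes with the largest ratios above 1, and they were not higher without blocks 1 and 2. Lcn2, the lipocalin 2 gene, had 197 UMIs in wells with and 225 in wells without (log2 ratio 1.63, interval 1.35 to 1.91). Saa2 and Saa1, the serum amyloid A genes, had log2 ratios of 1.37 and 1.28, and Orm2, which encodes an orosomucoid, 1.14. Saa1 reached a highest level of 223 UMIs per 10000 in a well with and 250.3 in a well without, against medians of 0.937 and 0.423. The 5 wells richest in Saa1 held 55.3% of its UMIs among the wells with and 40.5% among the wells without. Block 2 of the well numbers held 67 pair wells, and in its 24 periportal wells Saa1 had 15340 UMIs per 1000000. Block 1, with 3 periportal wells, had 15895, and the other 15 blocks had 69.2 to 354. In block 2, 13 of 24 periportal wells held Sox9 or Spp1, which is 54.2% (32.8 to 74.4), against 4.69% to 24.2% in blocks 3 to 41 and 0 of 3 in block 1. Sox9 had 37.3 UMIs per 1000000 in block 2 and 13.9 at most in any other block. Without blocks 1 and 2, over 230 wells with and 1283 wells without, the log2 ratio of Saa2 was -0.50 (interval -0.71 to -0.30). It was -0.10 (-0.75 to 0.51) for Lcn2, -0.06 (-0.18 to 0.06) for Saa1 and -0.02 (-0.48 to 0.42) for Orm2. These 3 intervals include 0. Saa1 was higher in wells with in 4 of 16 blocks. Counts of Saa1 and Saa2, and of Orm1 and Orm2, are uncertain as single genes because the members of each pair are near-identical. Of 24 measured acute-phase genes 19 had a log2 ratio above 0 (median 0.10), and without blocks 1 and 2 it was 12 of 24 (median -0.00). Block 2 also held 122 UMIs of Kupffer cell and macrophage markers (73 and 49) in its 24 wells, and its median depth was 21724.5 UMIs. If blocks are libraries, the mouse aged 6 weeks and these levels cannot be told apart.

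**Figure D3:**
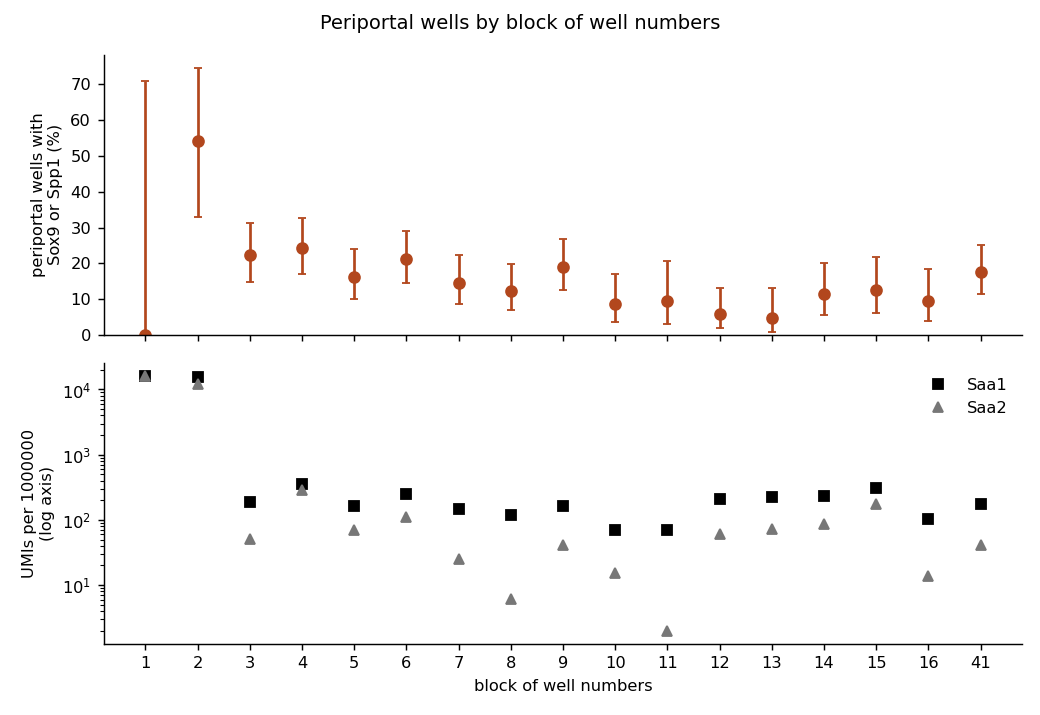
Top, percent of periportal wells with Sox9 or Spp1 in each block of 384 well numbers, with exact binomial 95% intervals. Bottom, UMIs of Saa1 and Saa2 per 1000000 gene UMIs in the periportal wells of the block, on a log axis. Block 2 has the highest share, 54.2%, and blocks 1 and 2 have Saa1 levels of 15895 and 15340 where the others have 69.2 to 354.

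Some other genes were higher in wells with Sox9 or Spp1, with a ratio above 1 also without blocks 1 and 2. Irf2bp1, which encodes a partner of the interferon regulatory factor IRF2, had 18.5 UMIs per 1000000 in wells with and 10.3 in wells without. It was found in 65 of 243 wells with and 138 of 1297 wells without, and its log2 ratio was 0.84 (interval 0.43 to 1.25), 0.83 when matched and 0.87 without blocks 1 and 2, with that direction in 8 of 9 blocks. At 5000 UMIs it was found in 8.89% of wells with and 4.99% of wells without. Prorsd1, a gene related to the editing domain of prolyl-tRNA synthetase, had 35.8 and 23.6 UMIs per 1000000 (log2 ratio 0.60, interval 0.31 to 0.88; 0.49 matched; 12 of 16 blocks). At 5000 UMIs it was found in 19.6% of wells with and 10.5% of wells without. Tubb2a, a beta-tubulin gene whose counts could hold reads of the near-identical Tubb2b, had 49.0 and 29.1 UMIs per 1000000. Its log2 ratio was 0.75 (0.50 to 0.996), 0.65 when matched, 0.47 without blocks 1 and 2 and 0.29 when matched for block. The last 2 values are below 1.5-fold, and the direction held in 12 of 16 blocks. At 5000 UMIs it was in 45 of 225 wells with and 128 of 1082 wells without. Slc3a1, which encodes a subunit of an amino acid transporter and is itself a portal gene, had 33.6 and 21.0 (0.68, interval 0.38 to 0.97; 0.43 matched), but 0.44 without blocks 1 and 2 and 0.30 also matched, which is below 1.5-fold. Uck1, a uridine-cytidine kinase gene, had 14.9 and 9.84 (0.60, interval 0.15 to 1.04), with that direction in 9 of 10 blocks, but had a log2 ratio of -0.55 when wells were thinned before grouping.

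The levels of these genes were also read by the number of Sox9 and Spp1 UMIs, which chose the wells, so they are a description. Tubb2a had 29.1 UMIs per 1000000 in wells with 0 UMIs of the 2 genes, 38.0 in the 183 wells with 1 and 79.1 in the 60 wells with 2 or more. Without blocks 1 and 2 these were 25.9, 32.8 and 46.2. Slc3a1 had 21.0, 23.0 and 62.9 in the 3 classes, and 19.8, 21.0 and 46.2 without blocks 1 and 2. Prorsd1 had 23.6, 32.5 and 45.0. Irf2bp1 had 10.3, 20.7 and 12.6, and the intervals of the last 2 classes overlap (15.9 to 26.4 and 6.88 to 21.1). The median score was 0.0302, 0.0206 and 0.0122 in these classes, so it also differed between them. The part of position in these levels was not tested. Wells with both genes (21) had 73.4 UMIs of Tubb2a per 1000000, and wells with Sox9 alone (146) had 49.4, or 52.0 and 32.0 without blocks 1 and 2. Wells with Spp1 alone (76) had 39.3 (28.6 to 52.8). Slc3a1 had 83.2 in wells with both genes, 31.9 with Sox9 alone and 19.7 (12.3 to 29.8) with Spp1 alone. Without blocks 1 and 2 these levels of Slc3a1 were 60.6, 25.2 and 19.7.

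The ratios of the other genes among the 12 highest came down or turned when certain blocks were left out. Aldh1b1, a mitochondrial aldehyde dehydrogenase gene and a member of the periportal list, had 112 UMIs in wells with and 168 in wells without (log2 ratio 1.24, interval 0.88 to 1.59), but 0.29 without blocks 1 and 2 (-0.20 to 0.75). Matched for block, the log2 ratio of Aldh1b1 was 0.85, and its direction held in 7 of 12 blocks. The 5 wells richest in Aldh1b1 held 44.6% of its UMIs in the wells with. The predicted gene Gm6484 had 0.83, and 0.15 without blocks 1 and 2. The predicted gene Gm7204 had 0.64, and -0.43 without block 4, and only 1 block held enough of its UMIs to be read. Predicted genes often resemble other loci, so reads of a relative may be among their counts.

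**Figure D4:**
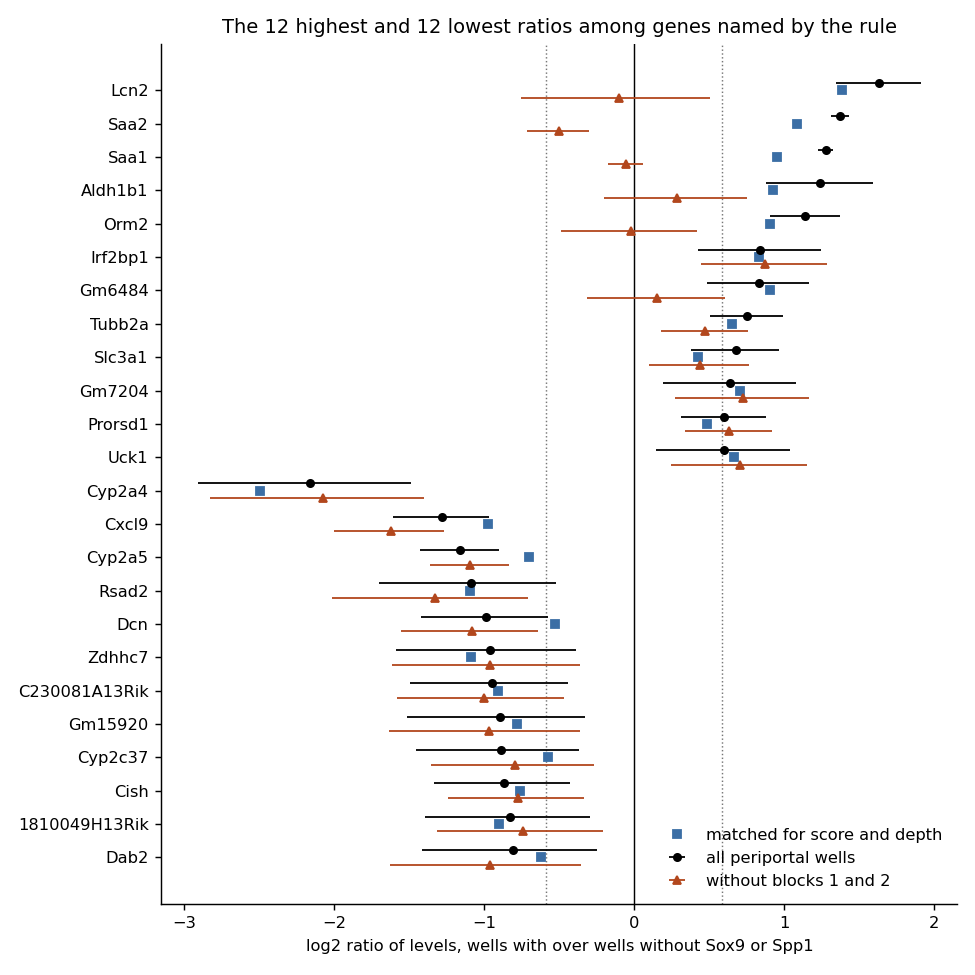
The 12 highest and the 12 lowest genes by the naming rule, with log2 ratios of the level in wells with over wells without Sox9 or Spp1. Circles are all periportal wells and triangles the wells without blocks 1 and 2, both with 95% counting intervals, and squares are ratios matched for score and depth. Dotted lines mark 1.5-fold. The ratios of Lcn2, Saa1, Saa2 and Orm2 lie above 1 on the log2 scale over all wells and between -0.50 and -0.02 without blocks 1 and 2.

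The lower genes in wells with Sox9 or Spp1 included central-type detoxification genes and genes carried by few wells. Cyp2a5 and Cyp2a4, cytochrome P450 genes that are near-identical and so uncertain as single genes, had log2 ratios of -1.16 (interval -1.43 to -0.90) and -2.16 (-2.91 to -1.49). Cyp2a5 was 2.23-fold lower, with 32.7 UMIs per 1000000 in wells with and 73.0 in wells without. When matched it was -0.70, and its direction held in 11 of 15 blocks. At 5000 UMIs it was found in 12.9% of wells with and 20.4% of wells without. Cyp2a4 was in 12 of 243 wells with and 78 of 1297 wells without, and 59.3% of its UMIs in the wells without came from 5 wells. Its log2 ratio was -0.97 without block 16. Cyp2c37, another pericentral cytochrome P450 gene with near-identical relatives, had 8.17 and 15.1 UMIs per 1000000 (log2 ratio -0.89; -0.57 matched).

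For a pair of the 12 lowest genes, a few wells held much of the RNA. Cxcl9, an interferon-gamma-induced chemokine gene, had 22.4 UMIs per 1000000 in wells with and 54.3 in wells without (log2 ratio -1.28, interval -1.61 to -0.97). The highest well held 5.76 UMIs of Cxcl9 per 10000 among the wells with and 189 among the wells without. It was found in 16.5% of wells with and 12.2% of wells without, and at 5000 UMIs in 8.89% and 7.95%, so the share of wells does not go with the level. Of its UMIs in wells without, 52.8% were in 5 wells, and its log2 ratio was -0.79 without block 15 and -1.62 without blocks 1 and 2. Rsad2, which encodes the antiviral protein viperin, had 6.97 and 14.8 UMIs per 1000000, with 50.9% of its UMIs in wells without in 5 wells.

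The other lower genes had various roles. Cish, a feedback inhibitor gene of cytokine and growth hormone signalling, had 11.8 UMIs per 1000000 in wells with and 21.4 in wells without (log2 ratio -0.86, interval -1.33 to -0.43; -0.03 when matched for block, with that direction in 5 of 9 blocks). Zdhhc7, a palmitoyltransferase gene, had 6.73 and 13.1 (-0.96; -1.09 matched; 11 of 12 blocks). Dab2, an endocytic adaptor gene that endothelial cells and macrophages express, had 7.21 and 12.6 (-0.81; -0.62 matched; 8 of 10 blocks). Dcn, the decorin gene of stellate cells and fibroblasts, had 13.2 and 26.1 (-0.98; -0.52 matched; 9 of 15 blocks). The uncharacterised genes C230081A13Rik (-0.95), Gm15920 (-0.90) and 1810049H13Rik (-0.82) complete the 12.

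Genes of the lobule axis differed in the direction of the score, and their medians were nearer to 0 at equal score and depth. Log2 ratios were above 0 for 29 of the 34 measured periportal hepatocyte genes. Their median was 0.12 over all wells, 0.05 when matched and 0.12 without blocks 1 and 2. Sds, the serine dehydratase gene, had 480.2 UMIs per 1000000 in wells with and 368 in wells without (log2 ratio 0.38; 0.07 matched; 13 of 16 blocks). Ctnnbip1, whose product keeps beta-catenin from TCF factors, had 29.8 and 20.5 (0.54; 0.32 matched; 13 of 16 blocks). Hpx, the hemopexin gene, had a log2 ratio of 0.30, and 0.12 without blocks 1 and 2. Apoa4 went the other way, with -0.20 (interval -0.33 to -0.06). Of 22 measured pericentral hepatocyte genes 0 were above 0, with a median of -0.25 over all wells and -0.08 when matched. Cyp1a2 was 1.32-fold lower, with 273 UMIs per 1000000 in wells with and 361.5 in wells without (log2 ratio -0.40; -0.08 matched; 14 of 16 blocks). Cyp7a1, which encodes the rate-limiting enzyme of bile acid synthesis, had 94 UMIs in wells with and 486 in wells without (-0.55; -0.05 matched). Aldh3a2, whose enzyme oxidises fatty aldehydes, had 59 and 346 UMIs (-0.73; -0.19 matched). The 5 Wnt/beta-catenin target genes measured had a median of -0.31, and -0.08 when matched. Since low scores chose the periportal wells and wells with lay at lower scores, these lists are no measure apart from position.

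Pathways tied to Sox9 and Spp1 in duct cells lay near 0. The 8 measured Notch pathway genes, which act in duct specification, had a median log2 ratio of 0.03, with the receptor gene Notch1 at -0.22 (interval -0.72 to 0.26). The 10 measured genes of the Hippo-YAP pathway, which can turn hepatocytes toward a duct fate in mouse, had a median of 0.01, with Yap1 at -0.30 and its partner gene Wwtr1 at 0.26, both with intervals that include 0. Cyr61, a secreted YAP target chosen here after its values were seen, had too few UMIs for the gene comparison, 22 in wells with and 37 in wells without, a ratio of 2.11 (1.18 to 3.66). The 11 measured TGF-beta and BMP pathway genes had a median of -0.02, and the 15 measured Sox, Hnf and Onecut transcription factor genes one of -0.01. Bmpr1a, a BMP receptor gene, had a log2 ratio of 0.35 (0.04 to 0.64). Of the measured genes of these 4 lists 0 were past 1.5-fold, beside 0.189% higher and 0.584% lower over all genes, so this count is no result about the lists. Of 18 measured keratin and junction genes 8 were above 0 (median -0.02). Cdh1, the E-cadherin gene, stood out from that list with 49.5 UMIs per 1000000 in wells with and 33.8 in wells without (log2 ratio 0.55, interval 0.31 to 0.79; 0.36 matched; 13 of 16 blocks), but had 0.22 without blocks 1 and 2. It was found in 116 of 243 wells with and 357 of 1297 wells without. Esrp2, an epithelial splicing factor gene, had 95 and 492 UMIs, and a log2 ratio of -0.55 that was -0.53 when matched, with that direction in 13 of 16 blocks. The 7 measured genes of Spp1 receptors and matricellular proteins had a median of -0.13, with Itga9, an integrin gene that endothelial cells also express, at -0.61 (interval -1.17 to -0.08).

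Genes of the secretory pathway and the unfolded protein response were slightly higher in wells with. The log2 ratio was above 0 for 20 of 22 measured genes, against 46.8% of all genes compared. Its median was 0.09 over all wells, 0.08 when matched, 0.05 when matched for block and 0.10 without blocks 1 and 2. Of the members 0 reached 1.5-fold. Pdia3, a protein disulfide isomerase gene, had 223 UMIs per 1000000 in wells with and 193 in wells without (log2 ratio 0.21, interval 0.10 to 0.31; 13 of 16 blocks). Sdf2l1 and Dnajb9, which encode partners of the chaperone BiP, had 0.28 (0.01 to 0.54) and 0.22 (0.02 to 0.41).

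Medians of bile acid, urea cycle and other metabolic lists lay near 0. Of 21 bile acid genes 5 were above 0 (median -0.08; -0.03 matched), with the uptake transporter gene Slco1b2 at -0.30 and -0.11 when matched. The 11 urea cycle and ammonia genes had a median of 0.06, led by Ass1 at 0.20. Medians were 0.05 for amino acid breakdown, 0.06 for gluconeogenesis and glycogen, 0.01 for fatty acid and cholesterol synthesis, -0.04 for fatty acid oxidation and ketogenesis, 0.04 for plasma proteins and apolipoproteins, and -0.04 for xenobiotic metabolism. They were -0.07 for major urinary proteins, 0.00 for oxidative phosphorylation, -0.05 for cytosolic ribosomal proteins, 0.02 for the proteasome, -0.01 for complement, 0.05 for immediate early and heat shock genes, -0.08 for 6 cell division genes and 0.15 for 3 fetal and progenitor genes. For the iron list it was -0.05, in which Hamp, the hepcidin gene, had -0.32 (interval -0.39 to -0.24; -0.15 matched). Single members of these lists lay farther out. Myc, a growth-promoting transcription factor gene of the immediate early list, had 50 UMIs in wells with and 306 in wells without (log2 ratio -0.79, interval -1.25 to -0.35; -0.73 matched), with that direction in 4 of 7 blocks and a log2 ratio of 0.15 when matched for block. Ppp1r3c, which encodes a subunit that directs a phosphatase to glycogen, had 21.9 and 14.7 UMIs per 1000000 (0.57, interval 0.20 to 0.93; 0.47 matched; 6 of 11 blocks). Pcna, the DNA replication clamp gene, had 13.9 and 18.8 on that scale (-0.43, interval -0.87 to -0.02; 13 of 14 blocks).

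**Figure D5:**
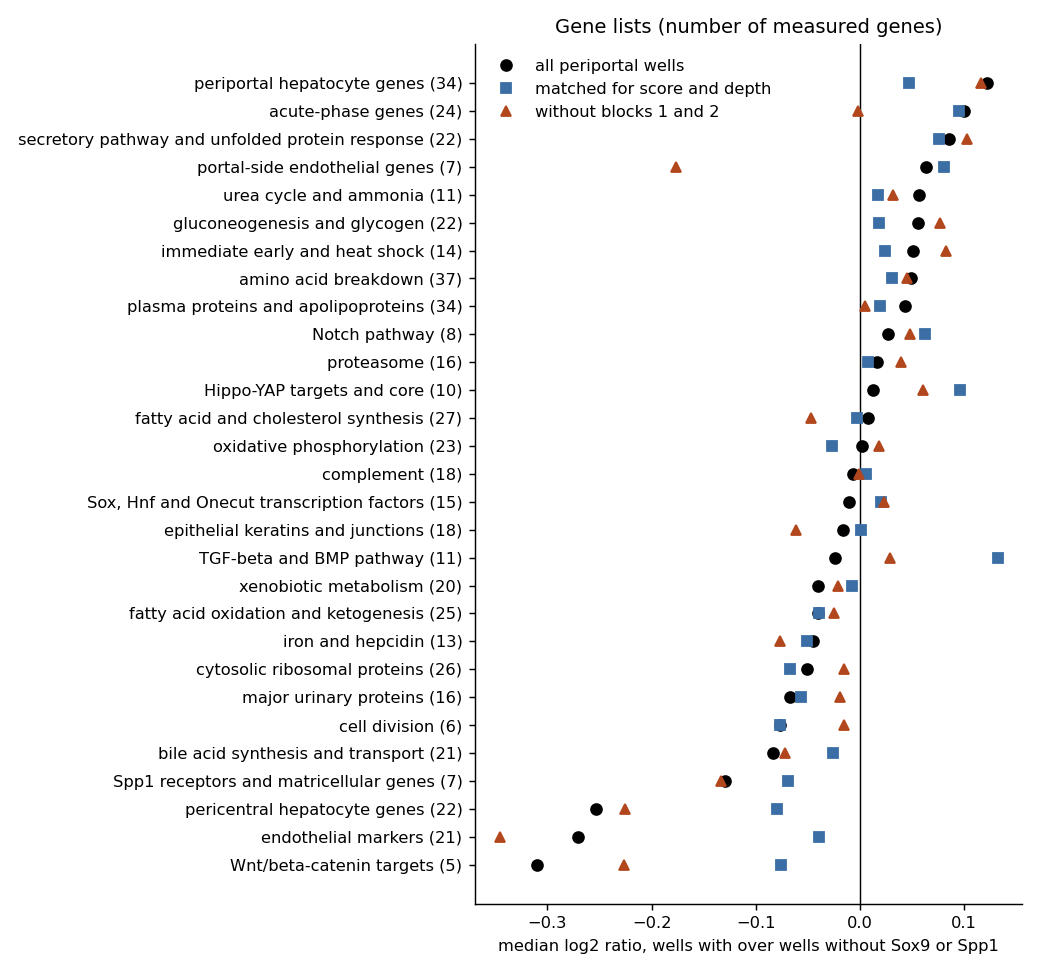
Median log2 ratio of the level in wells with over wells without Sox9 or Spp1 for each list with at least 5 measured genes, whose number stands in brackets. Circles are all periportal wells, squares ratios matched for score and depth, and triangles wells without blocks 1 and 2. Pericentral genes, Wnt/beta-catenin targets and endothelial markers lie between -0.31 and -0.25 over all wells and between -0.08 and -0.04 when matched.

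Endothelial transcripts, those of the attached cell, made up a smaller part of the RNA in wells with, but not when wells were thinned to 5000 UMIs before grouping, where the ratio of their sum was 1.03. All 21 measured endothelial markers had a log2 ratio below 0, with a median of -0.27. Their summed level was 1143 UMIs per 1000000 in wells with and 1384 in wells without, a ratio of 0.826 (0.800 to 0.852), or 0.780 without blocks 1 and 2. When matched for score and depth, the ratio of the sum was 0.966 and the median -0.04. Stab2, a scavenger receptor gene of sinusoidal endothelium, had 19.7 and 30.9 UMIs per 1000000 (log2 ratio -0.65; -0.47 matched; 14 of 16 blocks). Lyve1, a hyaluronan receptor gene, had -0.59 and -0.29 when matched. In a pair of cells, less endothelial RNA and more hepatocyte RNA cannot be told apart from levels per 1000000. The 7 measured endothelial genes known for the portal side had a median of 0.06, and -0.18 without blocks 1 and 2. The 2 measured central-side ones had -0.25, and 0.05 when matched.

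Markers of other cells were few. The 24 stellate cell and fibroblast markers summed to 51.4 UMIs per 1000000 in wells with and 90.5 in wells without, a ratio of 0.568 (0.489 to 0.657), or 0.752 when matched, and a UMI of any of them was in 41.2% of wells with and 41.6% of wells without. The highest well had 13.3 UMIs of these markers per 10000 among wells with and 51.6 among wells without. The 15 Kupffer cell markers summed to 80.3 and 83.5 UMIs per 1000000 (ratio 0.962), and the 16 monocyte and macrophage markers to 36.8 and 33.9 (1.09). Without blocks 1 and 2 those ratios were 0.862 and 0.944. Lymphocyte markers had 12 UMIs in wells with and 28 in wells without, and neuroendocrine and mesothelial markers 1 and 3.

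The contrast was also read in the other wells of the lobule, where 75 middle wells and 48 central wells held Sox9 or Spp1. Their median depths were 15762 and 14471.5 UMIs, against 10055 and 10815 in wells without. For Irf2bp1, Prorsd1, Slc3a1 and Tubb2a the intervals there included 1. Irf2bp1 had a ratio of 0.821 in middle wells (interval 0.442 to 1.41), and Prorsd1 one of 1.17 (0.838 to 1.60). Slc3a1 had 3 UMIs in middle wells with and 81 in middle wells without, a ratio of 0.491 (0.0992 to 1.49). Tubb2a had a ratio of 1.30 in middle wells (0.984 to 1.70) and 1.08 in central wells (0.725 to 1.54). Cyp2a5 was again lower in wells with, at 540 against 936 UMIs per 1000000 in middle wells and 1593 against 2072 in central wells. Also lower in both were Cyp2a4 (ratios 0.233 and 0.290), Rsad2 (0.477 and 0.421), Cish (0.420 and 0.529) and Cyp2c37 (0.792 and 0.843). Their intervals lay below 1. For Zdhhc7, Dab2, Gm15920 and 1810049H13Rik the intervals in both included 1. Cxcl9 was lower in middle wells, with a ratio of 0.473 (0.304 to 0.705). In central wells it had the opposite direction, with 108.8 and 18.9. So had C230081A13Rik, with a ratio of 2.10 in central wells (1.31 to 3.22), and Hamp, with 1.09 in middle (1.01 to 1.17) and 1.32 in central wells (1.19 to 1.46). Dcn had a ratio of 1.85 in middle wells (1.39 to 2.42) but 0.519 in central wells. Saa1 was higher in wells with in both, with ratios of 2.152 and 2.60, as were Saa2 with 2.55 and 3.02 and Orm2 with 1.85 and 1.90, all with blocks 1 and 2 included. The difference between parts of the lobule was not tested.

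Sox9 and Spp1 were also counted in the single non-parenchymal cells. Of 3720 wells 18 had a UMI of Sox9 or Spp1, which is 0.484% (0.287 to 0.764), at a median depth of 526.5 UMIs, far below that of the pairs. Sox9 had 7 UMIs in 5 wells, and Spp1 44 UMIs in 13 wells, of which 22 were in 1 well. Per 1000000 UMIs, Sox9 had 2.63 in these cells, against 10.6 in periportal pairs, and Spp1 had 16.5, against 6.51. At least 2 UMIs of the 8 duct markers were in 4 wells, and 0 of these held Sox9 or Spp1. The tables shared 0 well names.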

How the data were processed

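The authors deposited raw counts of UMIs, 1 value for each gene in each well, which sum to different totals and carry no scaling. The submitters' processing notes name bcl2fastq 2.15.0.4 and build mm9. Aligner and annotation version: not given in the sources used here. Rows of the 92 spike-in RNAs, 0.715% of UMIs in the pair table, were left out. Levels are UMIs summed over wells per 1000000 gene UMIs. Levels have exact Poisson intervals, shares exact binomial ones and ratios exact conditional binomial ones (Python 3.11.15, scipy 1.17.1). Only the ratios with their intervals and the matched ratio were tried on simulated data. Those counts were Poisson, so coverage beyond counting error was not tested. Pair depth was 2423 to 49311 UMIs per well, median 10450. Pairs are sorted doublets, so no doublet caller was run.

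Genes needed 200 UMIs over both groups. Named genes were the 12 highest and 12 lowest ratios whose interval excludes 1 and whose matched ratio is at least 1.2-fold on the same side, up to 3 list members farthest from 1, and cholangiocyte markers with a UMI; other genes named were chosen after their values were seen. Of 777 list genes 776 were found. Blocks are runs of 384 well numbers, read where a gene had 10 UMIs; their numbers equal those in the pair library titles, but no source states that they are libraries. Members and lists were chosen with earlier results of these data known. Values of a few list members are not reported here. The edgeR test per mouse planned for mapped wells was not run, since no source states the map.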

Additional observations from a re-analysis of the deposited data

How the results depend on the processing

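No paired analysis was possible because no well is stated to be of a given mouse. The cause of each change was not tested unless fewer wells or genes show it. The share of periportal wells with Sox9 or Spp1 was 7.27% with wells thinned to 5000 UMIs, 17.9% with a stricter and 12.6% with a looser score limit, and 23.0% above and 8.57% below the median depth. Higher genes numbered 35 with wells weighted equally, 89 at 2 or more UMIs, 26 for wells with any Sox9, 40 for wells with any Spp1, 59 thinned, 7 matched for block, 52 at 100 UMIs, 4 at 500 UMIs, 1886 with no minimum, 33 with the looser score limit, 21 without wells holding 2 UMIs of cholangiocyte or macrophage markers, 5 without blocks 1 and 2 and 31 below the median depth. Lower genes numbered 82, 301, 71, 140 and 143 under the first 5 of these, 21 matched for score and depth, 152 at 100 UMIs, 9 at 500 UMIs, 4026 with no minimum, 76 with the looser score limit, and 22 above and 100 below the median depth. Leaving out each block in turn gave 5 to 16 higher and 34 to 49 lower genes, the 5 without block 2.

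Endothelial marker ratios were 0.785 with equal weights, 0.879 at 2 or more UMIs, 1.03 thinned, 0.966 matched, 0.789 with a score from the lists, 0.858 with 20 UMIs of the score genes, 0.760 and 0.776 without marker-holding wells (cholangiocyte or duct list, each with macrophages), 0.780 without blocks 1 and 2, 0.911 matched without them, and 0.941 above and 0.920 below the median depth. Stellate cell and fibroblast ratios were 0.755 at 2 or more UMIs, 0.756 thinned, 0.752 matched, 0.756 with the looser score limit, 0.786 and 0.678 without marker-holding wells, 0.713 matched without blocks 1 and 2, and 0.712 above and 0.485 below the median depth. Macrophage ratios were 1.14 at 2 or more UMIs, 0.843 without wells holding duct or macrophage markers, and 0.886 without blocks 1 and 2. Cholangiocyte ratios were 1.12 at 2 or more UMIs and 0.696 without marker-holding wells. The 0.696, and the 0.843 of macrophages, come from filters on the summed lists themselves, which keep wells with fewer than 2 UMIs. Wells with were deeper, so these values are no measure of marker level. The Spp1 ratio by Sox9 was 2.44 below the median depth. Over single blocks left out, ranges were 15.01% to 16.4% for the share, 0.778 to 0.851 for endothelial, 0.544 to 0.601 for stellate, 0.887 to 1.03 for macrophage and 0.941 to 1.03 for cholangiocyte markers, and 1.22 to 1.52 for Spp1 by Sox9.

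The direction turned for Lcn2 (-0.10), Saa2 (-0.50), Saa1 (-0.056) and Orm2 (-0.020) without blocks 1 and 2, for Saa2 (-0.25), Saa1 (-0.020) and Orm2 (-0.10) also matched, for Saa2 (-0.35) and Saa1 (-0.25) matched for block, for Saa2 (-1.35), Saa1 (-0.71) and Orm2 (-0.56) without cholangiocyte-marker or macrophage-marker wells, and for Saa2 (-0.80), Saa1 (-0.28), Orm2 (-0.10) and Cyp2a4 (0.063) without duct or macrophage-marker wells. It turned for Gm6484 in wells with any Spp1 (-0.072), Gm7204 at 2 or more UMIs (-1.11), Uck1 (-0.55) and 1810049H13Rik (0.21) thinned, and below the median depth for Gm6484 (-0.23), Uck1 (-0.41), Cyp2a4 (0.78) and 1810049H13Rik (0.27). Over single blocks left out, ranges were -0.23 to 2.00 for Lcn2, -1.05 to 1.57 for Saa2, -0.31 to 1.43 for Saa1, -0.33 to 1.32 for Orm2 and -0.43 to 0.74 for Gm7204. Of 864 values of the 24 genes under alternatives, 720 stayed within the counting interval. A turn is a change of sign only. Without blocks 1 and 2 the intervals of Lcn2, Saa1 and Orm2 reached both signs. Leaving out cholangiocyte-marker or macrophage-marker wells kept 62 wells with and 517 wells without. Leaving out duct or macrophage-marker wells kept 137 and 828. The 8 duct markers had 1 UMI in each group, so that filter left out wells almost only by macrophage markers. Alternatives without blocks 1 and 2, by depth and by the 8 duct markers were chosen after seeing the data.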
